A study of Mus musculus with 13 samples.

Results

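The genes of the mouse major histocompatibility complex (MHC), named H2 after the mouse locus, were followed in sorted CD4+ T helper cells from the spleens of myeloma-bearing mice. Members were all rows of the deposited gene table whose name starts with H2-, leaving out names that contain -ps, which gave 42 of 56748 genes. They comprise 2 classical class I genes, 26 nonclassical class I genes, 12 class II genes and 2 others that carry an H2 name, the class I pseudogene H2-K2 and H2-Ke6, which codes for a hydroxysteroid dehydrogenase. Of these, 21 passed the filter on low counts and were tested, among them both classical, 11 nonclassical and 6 class II genes. Another 14 had 0 counts in all 13 libraries, and 7 had between 1 and 68 counts over the 13 libraries together and were not tested.

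Classical class I molecules sit on almost every nucleated cell, pair with beta-2-microglobulin and show peptides made in the cytosol to CD8 T cells. Nonclassical class I molecules have narrower roles, such as signalling to NK receptors or presenting formylated bacterial peptides, and some of them are secreted. Class II molecules show peptides taken up from outside to CD4 T cells and in mice are made chiefly by B cells, dendritic cells and macrophages, while mouse T cells are not known as a source of them. The study asks what Eomes, a T-box transcription factor, does in helper cells during immunotherapy.

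All mice carried a Thy1.1 reporter of Foxp3, received an antibody that depletes NK1.1+ cells at 50 µg on days -2 and 5, and were engrafted with the transplantable Vk12653 multiple myeloma on day 0. They were then given 20 µg of an agonist antibody against the costimulatory receptor 4-1BB, or control IgG, on days 10, 13 and 16, and cells positive for the T cell receptor and CD4 and negative for Thy1.1 were sorted on day 18. The groups were Eomes-TKO mice given the 4-1BB antibody (2 libraries), the GFP+ fraction of Eomes-GFP mice given the 4-1BB antibody (3), the GFP- fraction of such mice (3), Eomes-TKO mice given IgG (3) and Eomes-GFP mice given IgG (2). Cells of Eomes-TKO mice and of Eomes-GFP mice given IgG carry no GFP fraction in the labels, which describe neither the Eomes-TKO allele nor the strain or MHC haplotype. They also do not say that libraries of a group come from separate animals, so p-values here reflect only how libraries of a group vary, which may be technical.

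Libraries held 6080956 to 10881129 estimated counts, and the level of a gene is stated in CPM, its count relative to the TMM-normalized library size. A total of 3 counts corresponded to 0.271 to 0.469 CPM. Eomes, the gene that was sorted on or altered, lay between 570.3 and 706 CPM in GFP+ libraries and between 1.36 and 16.8 CPM in the other 10 libraries. Cd3e and Cd4, which define the sorted cells, were at least 684 and 668 CPM in every library. Of the B cell genes, Ms4a1 reached at most 0.313 CPM and Cd79a at most 1.81 CPM, but Cd22 lay between 5.13 and 22.04 CPM. The immunoglobulin gene Igkc reached 82.0 CPM, in a GFP+ library. MHC genes took 0.826% to 0.946% of all counts in GFP+ libraries and 0.555% to 0.678% in the other 10, so the ranges did not overlap.

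The 2 classical genes were the most abundant members per length. H2-K1 lies at chr17:33996017-34000347 and H2-D1 at chr17:35262730-35267499 of GRCm38, and both code for heavy chains that present peptide to CD8 T cells. On the scale of mean CPM per kilobase of annotated exon, H2-K1 reached 903 and H2-D1 821 in GFP+ cells, followed by H2-Q7 at 544, H2-Q6 at 339, H2-Q4 at 167 and H2-T23 at 133. H2-Q5 stood at 67.9, H2-T22 at 62.1, H2-M3 at 22.1, H2-Q10 at 18.4, H2-T10 at 18.1 and H2-T24 at 17.0 CPM per kilobase in the same cells. The tested class II genes lay lower, between 0.190 for H2-Aa and 3.83 CPM per kilobase for H2-Oa.

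H2-K1 stood at 1575 and 1795 CPM in Eomes-TKO cells given the 4-1BB antibody, 2366, 2975 and 2614 CPM in GFP+ cells, 1990, 2153 and 2165 CPM in GFP- cells, 1986, 2086 and 1945 CPM in Eomes-TKO IgG cells and 1962 and 1898 CPM in Eomes-GFP IgG cells. H2-D1 stood at 1232 and 1571 CPM in Eomes-TKO 4-1BB cells, 1922, 2366 and 2066 CPM in GFP+ cells, 1580, 1728 and 1692 CPM in GFP- cells, 1562, 1739 and 1356 CPM in Eomes-TKO IgG cells and 1450 and 1531 CPM in Eomes-GFP IgG cells. The 3 GFP+ libraries were the highest of the 13 for both genes, the 2 Eomes-TKO 4-1BB libraries lay lowest for H2-K1, and the other groups lay close together. Between the genes the balance hardly moved, with H2-D1 over H2-K1 at 0.782 and 0.875 in the Eomes-TKO 4-1BB libraries, 0.790 to 0.812 in GFP+, 0.782 to 0.803 in GFP-, 0.697 to 0.834 in Eomes-TKO IgG and 0.739 and 0.806 in Eomes-GFP IgG libraries.

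The start regions of the classical pair and of 3 genes of the neighbouring Q region are shown. These 5 genes were taken because they were higher in GFP+ than in the other cells, by margins from small to large. Other members that differed between GFP+ and GFP- cells are not shown here. Each region shown runs from 250 bases before to 50 bases after the start annotated in RefSeq. For H2-D1 this start lies inside the gene span given above, which comes from another annotation. The sequences are from RefSeq on GRCm38.p6, written 5′ to 3′ along the gene, with matches to the searched motifs in capitals. H2-K1 is on the minus strand (chr17:34000298-34000597), and H2-D1 (chr17:35262844-35263143), H2-Q6 (chr17:35424600-35424899), H2-Q7 (chr17:35438905-35439204) and H2-Q10 (chr17:35469839-35470138) are on the plus strand.
H2-K1: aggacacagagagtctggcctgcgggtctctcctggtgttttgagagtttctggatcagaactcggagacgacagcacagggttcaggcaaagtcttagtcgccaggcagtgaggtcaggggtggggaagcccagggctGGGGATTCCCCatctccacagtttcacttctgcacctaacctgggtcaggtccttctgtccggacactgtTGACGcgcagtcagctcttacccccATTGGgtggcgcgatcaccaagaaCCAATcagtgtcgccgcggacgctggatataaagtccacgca
H2-D1: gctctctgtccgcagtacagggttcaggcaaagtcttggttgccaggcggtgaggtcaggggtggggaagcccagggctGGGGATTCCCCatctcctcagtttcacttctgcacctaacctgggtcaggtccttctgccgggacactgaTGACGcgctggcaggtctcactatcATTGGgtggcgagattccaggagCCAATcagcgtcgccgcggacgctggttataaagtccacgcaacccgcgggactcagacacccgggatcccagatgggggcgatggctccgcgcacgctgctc
H2-Q6: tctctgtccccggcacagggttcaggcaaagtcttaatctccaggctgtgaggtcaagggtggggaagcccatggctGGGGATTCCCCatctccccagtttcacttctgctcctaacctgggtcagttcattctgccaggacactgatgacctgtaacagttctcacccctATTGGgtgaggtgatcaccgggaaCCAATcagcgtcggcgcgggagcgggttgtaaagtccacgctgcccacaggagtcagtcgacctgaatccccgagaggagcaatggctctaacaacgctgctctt
H2-Q7: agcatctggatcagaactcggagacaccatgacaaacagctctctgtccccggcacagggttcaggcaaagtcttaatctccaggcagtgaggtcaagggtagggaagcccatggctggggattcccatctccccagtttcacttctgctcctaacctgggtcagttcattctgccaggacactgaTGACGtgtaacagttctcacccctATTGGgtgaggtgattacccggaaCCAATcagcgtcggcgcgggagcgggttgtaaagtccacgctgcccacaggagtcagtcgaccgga
H2-Q10: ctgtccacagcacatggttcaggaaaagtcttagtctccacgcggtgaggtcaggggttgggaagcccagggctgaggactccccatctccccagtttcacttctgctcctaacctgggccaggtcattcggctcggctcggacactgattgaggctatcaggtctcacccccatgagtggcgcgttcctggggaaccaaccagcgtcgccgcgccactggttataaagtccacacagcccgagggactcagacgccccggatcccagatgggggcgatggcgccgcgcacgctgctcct

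Both strands were searched for the NF-kB site of the class I enhancer A (GGGGATTCCCC), the interferon response core (GAAANNGAAA), the CCAAT box (CCAAT), the cyclic AMP response core found in the X2 box (TGACG) and a T-box site (TCACACC). The motifs do not overlap in these windows. The letters of the enhancer A site were read from the H2-K1 window itself, so the match there was fixed in advance. This exact site was also present in H2-D1 and H2-Q6, and in 6 of 27025 RefSeq promoters of this length (0.0222%) with these genes included. The H2-Q7 window differs from it in the last letter only and was not counted as a match. Of the 5 genes shown, CCAAT occurred at 2 places each in H2-K1, H2-D1, H2-Q6 and H2-Q7, against 37.9% of all promoters with at least 1 match, and TGACG in H2-K1, H2-D1 and H2-Q7, against 21% of all. H2-Q10 held no match to any of the 5 motifs in this window. The interferon response core as spelled was found in H2-T22 and H2-T23 alone of the 16 tested members with a RefSeq promoter, against 3.49% of all. The T-box site was found in none of the 16, against 3.96%. Looser spellings were not searched. The stretch TTTCACTTCT, which departs from the reverse complement of the interferon core (TTTCNNTTTC) in its last letters only, occurs in all 5 windows shown. A match is a match of letters and no measure of binding.

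In the sort of 4-1BB-treated Eomes-GFP cells, class I and several Q region genes were higher in GFP+ than in GFP- cells, while the class II accessory gene H2-DMa and the nonclassical gene H2-T24 were lower. H2-Q10, which codes for a secreted class I molecule known mainly from liver and serum, rose most, to 84.3, 74.1 and 82.1 CPM in GFP+ cells, against 15.1, 16.5 and 17.0 CPM in GFP- cells. The edgeR quasi-likelihood test called 10 of the 21 tested MHC genes at an adjusted p below 0.05, with 8 higher and 2 lower in GFP+ cells. Of all 14059 tested genes 37.1% were called, with 20.7% higher and 16.5% lower, so the number of called members is not far above the background. The median log2 fold change was 0.76 over the 11 nonclassical genes tested, 0.34 over the 2 classical genes and -0.22 over the 6 class II genes, against 0.02 over all tested genes. With upper-quartile normalization, which shifts the median of all genes by -0.14 in this comparison, 6 members were higher and 3 lower, and 41.4% of all calls were higher, against 55.7% with TMM.

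H2-K1 was higher in GFP+ cells by 0.33 ± 0.10 (log2, SE, adjusted p = 0.0167) and H2-D1 by 0.35 ± 0.12 (adjusted p = 0.0347), and neither gene's groups overlapped. Both calls were lost with upper-quartile normalization, where the log2 fold changes were 0.19 (adjusted p = 0.103) and 0.21 (adjusted p = 0.154). Leaving out GFP+ replicate 2 gave 0.21 (adjusted p = 0.111) for H2-K1 and 0.23 (adjusted p = 0.190) for H2-D1, and both calls were also lost without GFP+ replicate 3 and without GFP- replicate 1. The H2-D1 call was lost in addition without GFP- replicate 2 or 3, and the H2-K1 call in a fit of the 2 fractions alone (adjusted p = 0.0553). T cell genes that define the sorted cells moved the same way, with Cd3e higher by 0.80, Cd3d by 0.51, Cd4 by 0.50, Trac by 0.42 and Lck by 0.42, each called, and their part in the class I difference was not tested. In bulk samples such as these, a change in the number of cells of a type and a change in RNA per cell cannot be told apart.

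The Q region, at chr17:35320405-35474563 of GRCm38, holds the genes with the largest rise among the nonclassical members. H2-Q7 codes for the Qa-2 antigen, a class I molecule held in the membrane by a lipid anchor, and stood at 1179 and 1078 CPM in Eomes-TKO 4-1BB cells, 2212, 2540 and 2202 CPM in GFP+ cells, 1498, 1352 and 1261 CPM in GFP- cells, 1370, 1192 and 1587 CPM in Eomes-TKO IgG cells and 1267 and 1087 CPM in Eomes-GFP IgG cells. H2-Q6, a closely related gene, stood at 238 and 226 CPM in Eomes-TKO 4-1BB cells, 686, 708 and 724 CPM in GFP+ cells, 361, 335 and 273 CPM in GFP- cells, 267, 236 and 248 CPM in Eomes-TKO IgG cells and 235 and 190.4 CPM in Eomes-GFP IgG cells. In both genes every GFP+ library lay above each of the other 10. Relative to GFP- cells, the log2 rise in GFP+ cells was 0.76 ± 0.12 for H2-Q7 (adjusted p = 0.00017), 1.13 ± 0.11 for H2-Q6 (adjusted p = 2.31e-06) and 2.31 ± 0.17 for H2-Q10 (adjusted p = 9.52e-08).

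H2-Q5, annotated as a polymorphic pseudogene, averaged 108 ± 7.28 CPM in GFP+ cells and 54.1 ± 6.62 CPM in GFP- cells (SD, n = 3 each), a log2 fold change of 1.00 ± 0.12 (adjusted p = 1.9e-05 in edgeR). H2-Q4 did not pass the test, at 463, 352 and 482 CPM in GFP+ cells and 491, 469 and 409 CPM in GFP- cells, where the groups overlapped (log2 fold change -0.08 ± 0.14, adjusted p = 0.699). H2-Q2 was scarce, at 2.50, 2.23 and 3.12 CPM in GFP+ cells and 0.488, 1.10 and 0.903 CPM in GFP- cells, and was higher by 1.64 ± 0.43 (adjusted p = 0.00744). It stood at 2.19 and 1.98 CPM in Eomes-TKO 4-1BB cells, 3.44, 2.86 and 1.73 CPM in Eomes-TKO IgG cells and 1.65 and 2.84 CPM in Eomes-GFP IgG cells, so the GFP- libraries were the low ones, and none of them reached the filter's cut of 1.17 CPM before normalization.

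**Figure D1:**
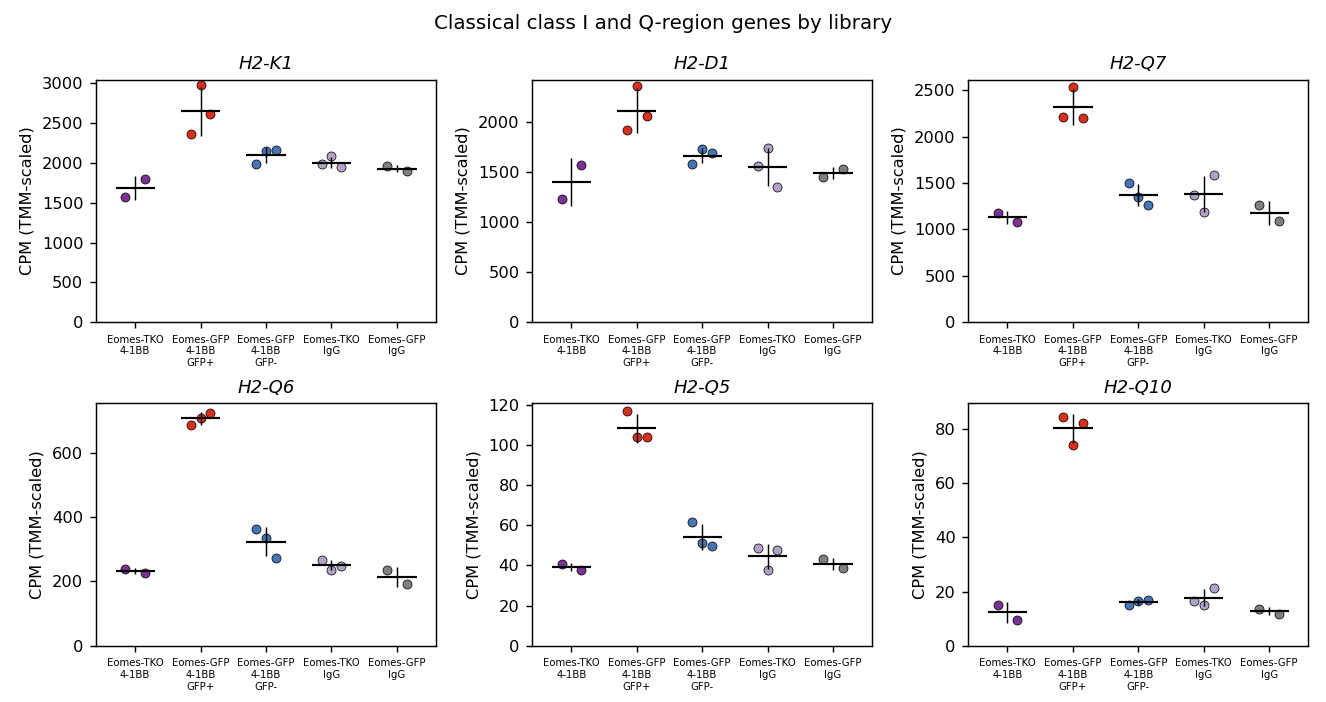
TMM-scaled CPM of 2 classical and 4 Q region genes in each library (points), with the group mean (bar) and SD (line), for Eomes-TKO 4-1BB, GFP+, GFP-, Eomes-TKO IgG and Eomes-GFP IgG cells from left to right. The 3 GFP+ libraries are the highest in every panel, and for H2-Q10 they lie between 74.1 and 84.3 CPM with no other library above 21.4 CPM.

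The plot of these 6 genes by library shows that the gap between GFP+ and the other groups differs between genes, from slight in H2-K1 and H2-D1 to wide in H2-Q10. Copies of the Q genes are alike, so part of their counts depends on how the authors' counting divided shared reads. Of the 31-base words in annotated transcripts of H2-Q5, 57.8% also occurred in transcripts of another gene, chiefly H2-Q7, and the share was 53.0% for H2-Q4, 51.8% for H2-Q6, 39.2% for H2-Q7, 32.8% for H2-Q2 and 30.3% for H2-Q10. It was 22.8% for H2-K1 and 26.9% for H2-D1. Values of the Q genes are therefore uncertain in how they are divided among copies.

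Ratios taken within a library do not depend on scaling between libraries. H2-Q5, H2-Q6, H2-Q7 and H2-Q10 together held 0.642 to 0.723 counts per count of H2-K1 and H2-D1 in GFP+ cells and 0.387 to 0.577 in the other 10 libraries, so the ranges did not overlap. All nonclassical genes together reached 0.857 to 0.985 counts per classical count in GFP+ cells and 0.628 to 0.863 in the other 10, with the ranges just overlapping at GFP- replicate 1. H2-Q10 took 0.747% to 0.990% of class I and nonclassical counts in GFP+ cells, against 0.168% to 0.359% in the other 10.

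**Figure D2:**
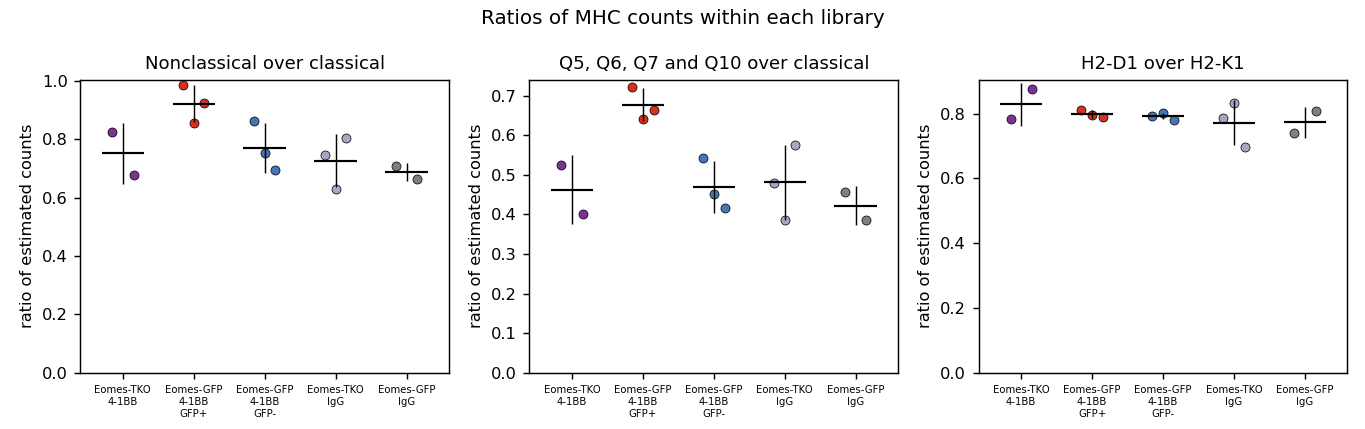
Ratios of estimated counts within each library (points), with group mean (bar) and SD (line): nonclassical over classical class I, the sum of H2-Q5, H2-Q6, H2-Q7 and H2-Q10 over classical class I, and H2-D1 over H2-K1. In the middle panel GFP+ libraries lie between 0.642 and 0.723 and the others at or below 0.577, while H2-D1 over H2-K1 lies between 0.697 and 0.875 in all 13.

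The plot of ratios within libraries describes 4 Q genes that were taken because they were high in GFP+ cells, so the middle panel is no test of the Q region. It leaves out H2-Q4, and over all nonclassical genes the ranges overlapped. The balance of the classical genes stayed in 1 range for all groups. The Q ratio spread widely in Eomes-TKO 4-1BB libraries, at 0.401 and 0.525, and in Eomes-TKO IgG libraries, from 0.387 to 0.577.

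Among the T and M genes, H2-M3, which presents N-formylated peptides, was higher in GFP+ cells, and H2-T24 was lower. H2-M3, at chr17:37270220-37274484, stood at 15.3 and 21.4 CPM in Eomes-TKO 4-1BB cells, 29.5, 30.5 and 35.2 CPM in GFP+ cells, 17.0, 20.6 and 18.7 CPM in GFP- cells, 18.0, 19.2 and 11.7 CPM in Eomes-TKO IgG cells and 18.3 and 14.98 CPM in Eomes-GFP IgG cells. Only 4.62% of its words were shared with another gene, and its log2 fold change over GFP- cells was 0.76 ± 0.19 (adjusted p = 0.00577). H2-T24, at chr17:36005695-36020560, stood at 46.7 and 66.95 CPM in Eomes-TKO 4-1BB cells, 38.4, 32.6 and 40.3 CPM in GFP+ cells, 61.1, 62.3 and 58.4 CPM in GFP- cells, 58.7, 65.1 and 48.7 CPM in Eomes-TKO IgG cells and 47.4 and 57.5 CPM in Eomes-GFP IgG cells. Here the GFP+ libraries were the 3 lowest of the 13, by -0.71 ± 0.15 against GFP- cells (adjusted p = 0.00191).

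H2-T23 codes for Qa-1, which shows leader peptides of other class I chains to inhibitory NKG2A receptors. It averaged 383 ± 30.3 CPM in GFP+ cells and 323 ± 11.0 CPM in GFP- cells (SD, n = 3 each), and although the libraries did not overlap the difference missed the threshold (log2 fold change 0.25 ± 0.11, adjusted p = 0.0814 in edgeR). H2-T22 and H2-T10, known as ligands of some gamma delta T cell receptors, gave log2 fold changes of 0.07 ± 0.11 (adjusted p = 0.669) and -0.11 ± 0.13 (adjusted p = 0.543) with overlapping libraries. These 2 genes share 47.2% and 47.6% of their words with each other. H2-T22, H2-T23 and H2-T24 overlap an antisense gene and H2-T10 overlaps 2 other genes. The strand setting of the counting is not given in the sources used here, so reads from stretches shared with these partners cannot be told apart. The antisense gene held 27.7% of the words of H2-T22, and BC023719, which overlaps H2-T10, held 25.8% of its words. For H2-T23 and H2-T24 the antisense gene was not among the 2 leading partners, and 6.61% of all H2-T24 words were shared.

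The other H2 rows differed from the class I pattern. H2-K2 stood at 32.9, 29.2 and 32.2 CPM in GFP+ cells and 24.3, 35.5 and 33.3 CPM in GFP- cells, with overlapping libraries and a log2 difference of 0.02 ± 0.14 (adjusted p = 0.940). H2-Ke6, which shares 76.1% of its words with another annotated gene on the same strand, averaged 26.8 ± 8.96 CPM in GFP+ cells and 38.7 ± 5.48 CPM in GFP- cells (SD, n = 3 each), with overlapping libraries (adjusted p = 0.0744 in edgeR). Of the untested nonclassical genes, H2-Q1 ranged from 0 to 1.34 CPM, and H2-M2, H2-T3 and H2-Bl had 1, 5 and 3 counts over the 13 libraries.

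Few genes outside H2 that serve class I presentation were called in the sort. Beta-2-microglobulin (B2m), the light chain, stood at 2688, 2963 and 2754 CPM in GFP+ cells and 2285, 2443 and 2127 CPM in GFP- cells, and did not pass the test although the libraries did not overlap (log2 fold change 0.29 ± 0.17, adjusted p = 0.206). Of 14 pathway genes, 2 were called higher and none lower, where 20.7% of all genes were called higher, so the list's share does not exceed that of all genes: the peptide transporter subunit Tap2 by 0.40 ± 0.12 (adjusted p = 0.0183) and Tapbpl, a peptide editor related to tapasin, by 0.97 ± 0.18 (adjusted p = 0.000633). Their median log2 fold change was 0.20, against 0.02 over all genes tested.

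Of 7 tested regulators, 3 were higher and 1 lower in GFP+ cells, with a median log2 fold change of -0.05, where 20.7% of all genes were called higher and 16.5% lower. Nlrc5, the transactivator of class I genes, stood at 862, 1122 and 849.7 CPM in GFP+ cells and 641, 611 and 623 CPM in GFP- cells, a log2 difference of 0.60 ± 0.12 (adjusted p = 0.00136). Rfx5, a subunit of the factor that binds the X box, was higher by 0.55 ± 0.12 (adjusted p = 0.00226), and the interferon regulatory factor Irf2 by 0.89 ± 0.13 (adjusted p = 0.000103). Irf1 gave -0.24 ± 0.10 and did not pass (adjusted p = 0.0864). Of 3 tested MHC-like genes outside the locus, Cd1d1, Mr1 and Fcgrt, none was called in edgeR and 1, Mr1, had an unadjusted p below 0.05 (median log2 fold change 0.07).

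In the next comparisons the same GFP+ libraries are set against Eomes-TKO 4-1BB and Eomes-GFP IgG cells, so they share libraries with the sort and with each other and are given side by side. Against GFP+ cells, Eomes-TKO 4-1BB cells had 13 of 21 MHC genes called, 3 higher and 10 lower, where 34.6% of all tested genes were called, 15.7% higher and 18.8% lower. H2-Q10 was lower by -2.72 ± 0.21 (adjusted p = 1.66e-07), at 15.1 and 9.49 CPM in Eomes-TKO 4-1BB cells against the GFP+ values above. H2-Q6 gave -1.61 ± 0.13 (adjusted p = 3.92e-07), H2-Q5 -1.47 ± 0.15 (adjusted p = 2.61e-06) and H2-Q7 -1.04 ± 0.14 (adjusted p = 3.86e-05). H2-K1 fell by 0.65 on the log2 scale (SE 0.11, adjusted p = 0.000454) and H2-D1 fell by 0.60 (SE 0.14, adjusted p = 0.00344). H2-M3, H2-T23, H2-Q4 and H2-T22 were also lower, by -0.38 to -0.78 on the log2 scale. These 4 calls were less stable, being lost in 6 of 11 alternatives for H2-Q4, 4 for H2-T22 and 2 each for H2-M3 and H2-T23. H2-DMa was higher by 1.31 ± 0.29 (adjusted p = 0.00259), H2-Ob by 1.19 and H2-T24 by 0.62.

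That count was 7 without Eomes-TKO 4-1BB replicate 1, when the calls of H2-D1, H2-Ob, H2-M3, H2-T23, H2-T22 and H2-Q4 were lost, and the call of H2-T24 was lost without Eomes-TKO 4-1BB replicate 2. With upper-quartile normalization, which shifts the median of all genes by 0.16 here, 7 members were higher and 8 lower, and 60.8% of all calls were higher, against 45.6% with TMM. T cell genes moved with the class I genes here too, with Cd4 at -0.60 ± 0.13 and Cd3e at -0.59 ± 0.14. Of the class I pathway, 6 of 14 genes were called lower and none higher, where 18.8% of all tested genes were called lower. Among them were Tap1 at -0.63 ± 0.15 and Tap2 at -0.69 ± 0.14. The pathway count was not repeated with other normalizations. Nlrc5 was lower by -0.94 ± 0.14.

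Against undivided Eomes-GFP IgG cells, GFP+ cells had 15 of 21 MHC genes called, 11 higher and 4 lower, where 34.2% of all tested genes were called, 18.8% higher and 15.4% lower. H2-Q10 was higher by 2.65 ± 0.20 (adjusted p = 1.86e-07), H2-Q6 by 1.73 ± 0.13 (adjusted p = 1.86e-07), H2-Q5 by 1.41 ± 0.14 (adjusted p = 3.42e-06) and H2-Q7 by 0.98 ± 0.14 (adjusted p = 6.02e-05). The classical genes were higher by 0.46 ± 0.11 for H2-K1 (adjusted p = 0.0057) and 0.51 ± 0.14 for H2-D1 (adjusted p = 0.00939), and H2-T23 by 0.48 ± 0.12 (adjusted p = 0.00612). H2-K2 was lower, at 32.9, 29.2 and 32.2 CPM in GFP+ cells and 47.7 and 53.1 CPM in Eomes-GFP IgG cells (log2 fold change -0.68 ± 0.16, adjusted p = 0.00351). H2-M3 and H2-T22 were also higher, and H2-Ob, H2-DMa and H2-T24 lower. The call of H2-T22 was lost in 7 of 11 alternatives, that of H2-DMa in 5, that of H2-T24 in 2 and that of H2-M3 in 1. Of the class I pathway 6 of 14 genes were higher and none lower, and of the CD4 T cell genes 5 of 6 were higher. The count of called MHC genes was 9 without Eomes-GFP IgG replicate 1 and 8 without replicate 2, and the call of H2-K1 was lost without either and that of H2-D1 without replicate 1. With upper-quartile normalization, which shifts the median of all genes by -0.14, 9 were higher and 5 lower, and 41.9% of all calls were higher, against 54.9% with TMM.

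GFP- cells against Eomes-GFP IgG cells had 1 of 21 MHC genes called where 0.761% of all tested genes were called. The gene was H2-Q6, at 361, 335 and 273 CPM in GFP- cells against 235 and 190.4 CPM in Eomes-GFP IgG cells (log2 fold change 0.61 ± 0.13, adjusted p = 0.0406). The call was lost without GFP- replicate 1, without GFP- replicate 2 and without either Eomes-GFP IgG library, with adjusted p between 0.141 and 0.566. H2-K2 gave -0.70 ± 0.16 and was not called (adjusted p = 0.0575), but passed in DESeq2 (adjusted p = 0.00883) and in 4 other fits. With the replicate number as a block, which pairs no animals here, 3 members were called.

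No MHC gene was called in the 3 comparisons of Eomes-TKO with other undivided or GFP- cells. Eomes-TKO IgG against Eomes-GFP IgG cells had 1 of 21 genes at an unadjusted p below 0.05, H2-Q10 (0.47 ± 0.20), against 430 of 14059 tested genes. By adjusted p, edgeR called 0.0142% of all tested genes there and DESeq2 called no member. Eomes-TKO 4-1BB against Eomes-TKO IgG cells had 7 at an unadjusted p below 0.05, against 506 of 14059 tested genes, and by adjusted p 0.0427% of all genes were called and DESeq2 called no member. Their log2 fold changes were -0.54 ± 0.20 for H2-Q10, -0.29 ± 0.13 for H2-Q7 and -0.25 ± 0.11 for H2-K1, and the other 4 were class II genes. Eomes-TKO 4-1BB against GFP- cells had 9 at an unadjusted p below 0.05, against 980 of 14059 tested genes, and by adjusted p 0.0427% of all genes were called and DESeq2 called no member. Of the 9, H2-Q6 had the lowest p (-0.48 ± 0.13, adjusted p = 0.362). A difference that misses the threshold with 2 or 3 libraries a group does not show that the levels are alike.

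**Figure D3:**
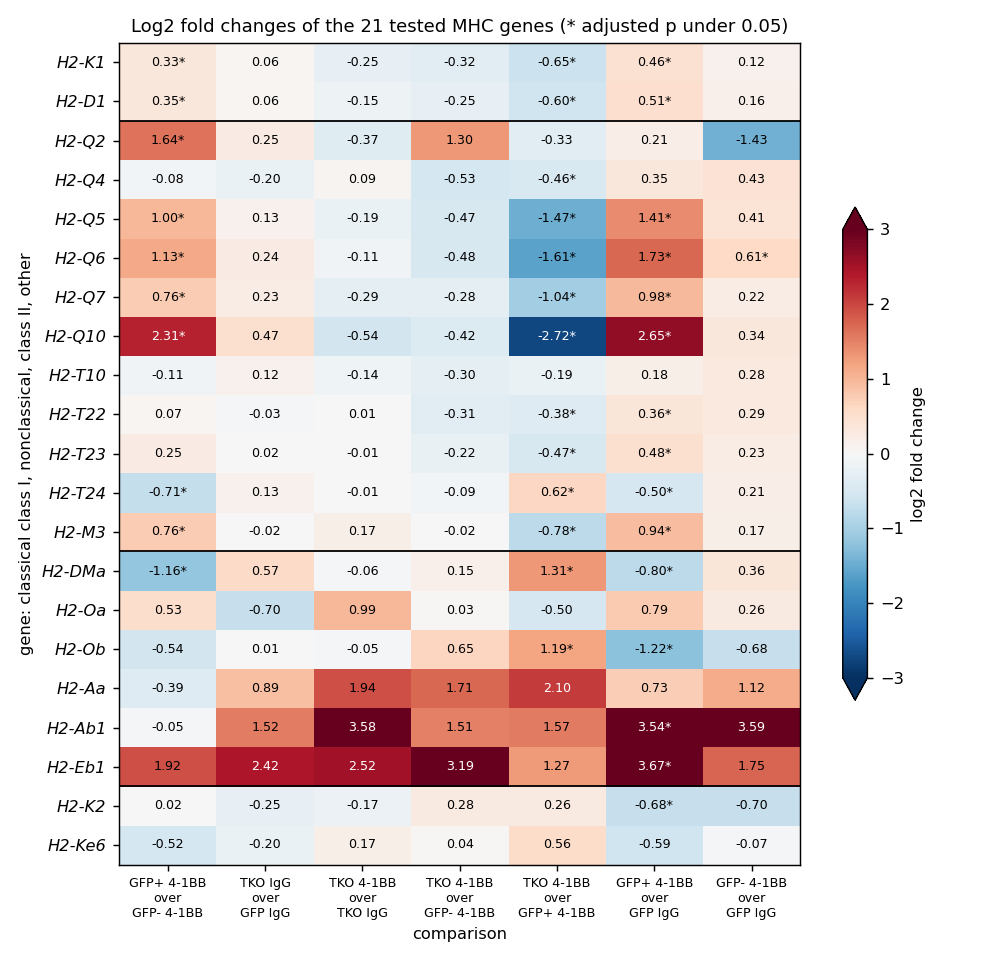
Log2 fold changes of the 21 tested MHC genes (rows, grouped by class) in the 7 comparisons (columns, first group over second), with an asterisk where the adjusted p of edgeR's quasi-likelihood test was below 0.05. Calls lie almost wholly in the 3 columns that contain GFP+ cells, with 10, 13 and 15 genes, and colours stop at a log2 value of 3.

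The plot of fold changes shows H2-Q5, H2-Q6, H2-Q7 and H2-Q10 with 1 sign in each column that contains GFP+ cells, and H2-T24 and H2-DMa with the other. H2-K1 and H2-D1 have the sign of the Q genes at smaller size. Columns that share a group are not independent of each other.

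The class II accessory genes H2-DMa, H2-Ob and H2-Oa were present in each library. The alpha and beta chain genes, and the accessory genes H2-DMb1 and H2-DMb2, lay at or near the counting floor. H2-DMa, the alpha chain of the molecule that removes the invariant chain peptide from class II, stood at 25.6 and 26.8 CPM in Eomes-TKO 4-1BB cells, 11.1, 14.0 and 6.88 CPM in GFP+ cells, 29.5, 21.8 and 19.6 CPM in GFP- cells, 23.7, 36.8 and 21.3 CPM in Eomes-TKO IgG cells and 19.7 and 17.1 CPM in Eomes-GFP IgG cells. The GFP+ libraries were the 3 lowest of the 13, and the difference from GFP- cells was -1.16 ± 0.26 (adjusted p = 0.00308). Its partner genes H2-DMb1 and H2-DMb2 were not tested and reached at most 1.05 and 0.786 CPM. H2-DMa overlaps Brd2 on the opposite strand and shares 9.23% of its words with it.

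H2-Ob, the beta chain of an inhibitor of H2-DM, stood at 41.7 and 28.1 CPM in Eomes-TKO 4-1BB cells, 10.26, 13.1 and 21.9 CPM in GFP+ cells, 17.8, 18.8 and 29.5 CPM in GFP- cells, 35.7, 34.2 and 37.9 CPM in Eomes-TKO IgG cells and 37.6 and 33.6 CPM in Eomes-GFP IgG cells. None of its words was shared with another gene. It was lower in GFP+ than in Eomes-GFP IgG cells by -1.22 ± 0.28 (adjusted p = 0.00442) and higher in Eomes-TKO 4-1BB than in GFP+ cells by 1.19 ± 0.29 (adjusted p = 0.00567), but overlapped in the sort (-0.54 ± 0.26, adjusted p = 0.128). With the animal as a block, read from library prefixes shared by GFP+ and GFP- cells, that difference was called (-0.61, adjusted p = 0.0106). H2-Oa, the alpha chain of the same inhibitor, ranged from 1.06 to 6.66 CPM over all libraries and was called in no comparison.

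The chain genes H2-Aa, H2-Ab1 and H2-Eb1, which form the class II molecules that hold peptide, had 123, 83 and 74 counts over all 13 libraries. H2-Ab1 lies at chr17:34257689-34269419, H2-Aa at chr17:34282744-34287823 and H2-Eb1 at chr17:34305867-34316674. Summed, they reached 7.03 and 8.13 CPM in the Eomes-TKO 4-1BB libraries, 1.25 to 4.45 CPM in GFP+, 1.17 to 3.53 CPM in GFP-, 0.521 to 2.17 CPM in Eomes-TKO IgG and 0.127 and 0.881 CPM in Eomes-GFP IgG libraries. The 2 Eomes-TKO 4-1BB libraries were thus the highest, and only there did all 3 genes reach the filter's cut, which is set on CPM before TMM normalization. The remaining chain gene H2-Eb2 had 4 counts in all and H2-Ea had 0.

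H2-Ab1 had 36 counts in the 2 Eomes-TKO 4-1BB libraries and 5 in the 3 Eomes-TKO IgG libraries, a ratio of 12.3 after library size (95% exact interval 4.8 to 40.1, counting error only), but the test over libraries did not call it (adjusted p = 0.123 in edgeR). It was called only without the filter on low counts (adjusted p = 0.00548). H2-Eb1 had 36 counts in Eomes-TKO 4-1BB and 10 in Eomes-TKO IgG libraries, a ratio of 6.14 (2.98 to 13.9). For H2-Aa the counts were 51 in Eomes-TKO 4-1BB and 22 in Eomes-TKO IgG libraries, a ratio of 3.95 (2.35 to 6.84), and neither gene was called.

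GFP+ cells against Eomes-GFP IgG cells gave called rises for H2-Ab1, with 19 counts in 3 GFP+ libraries and 1 in 2 Eomes-GFP IgG libraries (ratio 14.2, 95% exact interval 2.26 to 591, adjusted p = 0.0226 in edgeR), and for H2-Eb1, with 21 counts in GFP+ and 1 in Eomes-GFP IgG libraries (ratio 15.7, interval 2.53 to 650, adjusted p = 0.0498). Of these, H2-Ab1 reached 0.277, 1.44 and 0.645 CPM and H2-Eb1 0.416, 1.83 and 0.430 CPM in the GFP+ libraries, so replicate 2 was the highest for both. Without GFP+ replicate 2 neither was called (adjusted p = 0.0868 and 0.198), and neither was called in DESeq2 (adjusted p = 0.0518 and 0.058). H2-Aa had 17 counts in GFP+ and 8 in Eomes-GFP IgG libraries (ratio 1.59, interval 0.65 to 4.26) and was not called (adjusted p = 0.637 in edgeR). The H2-Ab1 level was not particular to GFP+ cells, with means of 0.787 CPM there and 0.831 CPM in GFP- cells. GFP- over Eomes-GFP IgG cells gave 3.59 ± 1.10 for H2-Ab1 and was not called (adjusted p = 0.209 in edgeR).

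**Figure D4:**
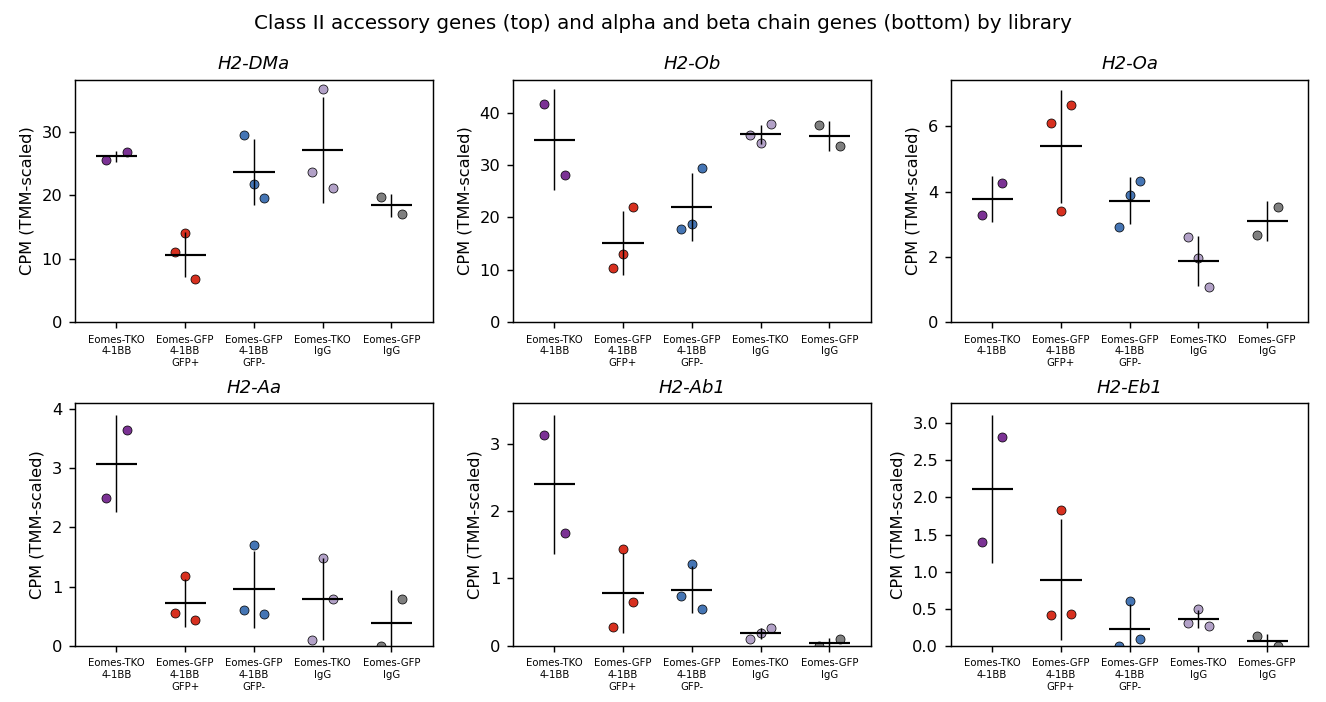
TMM-scaled CPM of the class II accessory genes H2-DMa, H2-Ob and H2-Oa (top) and the chain genes H2-Aa, H2-Ab1 and H2-Eb1 (bottom) in each library (points), with group mean (bar) and SD (line). H2-DMa is lowest in the 3 GFP+ libraries at 6.88 to 14.0 CPM. The chain genes have their highest group mean in Eomes-TKO 4-1BB cells, with no library above 3.65 CPM for any of them. For H2-Eb1, GFP+ replicate 2 at 1.83 CPM lies above Eomes-TKO 4-1BB replicate 1 at 1.41 CPM.

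The plot of class II genes shows H2-DMa and H2-Ob well above the counting floor in each library and the chain genes near it in most. Markers of other cells also differed between groups. The summed level of 10 B cell markers was 8.28 and 16.2 CPM in Eomes-TKO 4-1BB, 14.5 to 23.7 CPM in GFP+, 13.8 to 17.2 CPM in GFP-, 6.64 to 8.34 CPM in Eomes-TKO IgG and 7.73 and 8.52 CPM in Eomes-GFP IgG libraries. Cd22 made up much of that sum, at 5.13 to 22.04 CPM, while the defining gene Ms4a1 stayed at or below 0.313 CPM, and 2 to 5 of the 10 genes had no count within a group. Cd79a was called lower in GFP+ than in GFP- cells (-2.27 ± 0.71, adjusted p = 0.0207 in edgeR), where Cd22 was not called (0.29 ± 0.23, adjusted p = 0.351).

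Dendritic cell markers summed to 1.25 and 3.96 CPM in Eomes-TKO 4-1BB, 5.11 to 10.26 CPM in GFP+, 1.59 to 2.07 CPM in GFP-, 0.0986 to 0.626 CPM in Eomes-TKO IgG and 0.490 and 1.40 CPM in Eomes-GFP IgG libraries. Up to 6 of the 8 genes, in Eomes-TKO IgG cells, had no count within a group. Itgax, at 2.23 to 9.29 CPM, and Zbtb46, at 0.693 to 2.75 CPM, made up most of the GFP+ sum. Xcr1 and Flt3 went the other way, with means of 0.236 and 0.0436 CPM in GFP+ cells against 0.799 and 0.0813 CPM in GFP- cells. The remaining members had almost no counts in either fraction. Macrophage and monocyte markers summed to 7.34 and 10.12 CPM in Eomes-TKO 4-1BB, 8.73 to 24.9 CPM in GFP+, 5.24 to 19.6 CPM in GFP-, 1.04 to 3.55 CPM in Eomes-TKO IgG and 1.18 and 1.78 CPM in Eomes-GFP IgG libraries and 0 to 3 of the 10 genes had no count within a group. All 8 libraries of 4-1BB-treated mice were thus above the 5 IgG libraries for this sum. Lyz2 made up much of it, at 4.37 to 21.2 CPM in 4-1BB libraries and 0.196 to 1.46 CPM in IgG libraries. Not all members separated this way. C1qa was highest in Eomes-TKO IgG replicate 2, at 0.690 CPM, and reached at most 0.122 CPM in GFP- libraries. Plasma cell and myeloma markers summed to 12.2 and 19.6 CPM in Eomes-TKO 4-1BB and 77.2 to 82.5 CPM in GFP+ libraries, and to at most 2.29 CPM in the other 8. The immunoglobulin gene Igkc carried most of the GFP+ sum, at 76.1 to 82.0 CPM. Granulocyte markers summed to 1.25 and 1.77 CPM in Eomes-TKO 4-1BB, 1.52 to 22.6 CPM in GFP+, 3.66 to 11.8 CPM in GFP-, 0 to 0.133 CPM in Eomes-TKO IgG and 0 CPM in both Eomes-GFP IgG libraries. CD8 T and NK markers lay at 13.3 and 15.8 CPM in Eomes-TKO 4-1BB, 4.02 to 9.89 CPM in GFP+, 7.59 to 14.3 CPM in GFP-, 16.2 to 20.5 CPM in Eomes-TKO IgG and 12.3 and 15.5 CPM in Eomes-GFP IgG libraries. Members of this sum moved in opposite directions. In GFP+ against Eomes-GFP IgG cells, edgeR called Cd8a higher (4.94 ± 1.33, adjusted p = 0.0118) and Klrb1c lower (-3.74 ± 0.44, adjusted p = 1.14e-05). Cd8b1 was not called there (-0.97 ± 0.44, adjusted p = 0.104). The part of these other cell types in the class II values was not tested.

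Among the 4 genes of the class II pathway list, none was called higher in GFP+ than in GFP- cells. Cd74, the invariant chain, ranged from 1.59 to 14.7 CPM over all libraries and was not called in the sort (-0.18 ± 0.53, adjusted p = 0.828). Ciita, the class II transactivator, did not pass the filter and ranged from 0.197 to 0.975 CPM. Of 4 class II pathway genes, 2 were lower in GFP+ than in GFP- cells and none higher, where 16.5% of all genes were called lower: the lysosomal protease Lgmn, at 1.25, 2.23 and 1.40 CPM in GFP+ cells and 12.8, 12.1 and 12.3 CPM in GFP- cells (-2.92 ± 0.27, adjusted p = 1.23e-06), and the protease Ctss (-0.52 ± 0.13, adjusted p = 0.0051). The median log2 fold change of the 4 was -0.35, against 0.02 over all tested genes.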

How the data were processed

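Total RNA of sorted spleen T cells was depleted of ribosomal RNA and sequenced, per the labels' protocols. The authors deposited estimated counts per gene in 1 table, and the submitters' processing notes name STAR 2.7.10a, Salmon 1.5.2, cutadapt 3.4, Trim Galore 0.6.7 and GRCm39; the strand setting is not given in the sources used here. Of each library's values 6.25% to 7.33% were not whole, and all were rounded to whole counts. Columns were matched to the 13 listed libraries by title, and 34 columns of no listed sample were not used.

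All genes were fitted together in edgeR 4.0.16 (R 4.3.3) with filterByExpr, TMM normalization and a robust quasi-likelihood F test over 5 groups with 8 residual degrees of freedom, and p-values were adjusted by Benjamini-Hochberg over 14059 genes with a threshold of 0.05. Two-sided tests were used throughout. The alternatives were other normalizations (relative log expression and upper quartile), DESeq2 1.42.0, no filter, a fit of the 2 groups alone, blocks, and leaving out each library. Intervals of count ratios are exact at 95% and cover counting error only. The fit was first tested on simulated counts.

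Library prefixes were shared by GFP+ and GFP- libraries in 3 cases, and the fit with this animal as a block was an alternative; deviations of libraries with the same prefix correlated at 0.317, 0.112 and 0.061. Replicates of a group differed by more than sampling noise (chi-square per degree of freedom 13.6 to 23.5). Gene positions, exon lengths and shared 31-base words were taken from GENCODE M21 on GRCm38 and promoters from RefSeq on GRCm38.p6, which are not the build of the counts. Promoters of 16 of the 21 tested members were matched. The members, the gene lists and the named genes were chosen with earlier results of these data known. All tested MHC genes of the main comparisons were eligible for naming, with other genes taken from the lists. Values of some genes of the lists are not reported here, although list counts and sums include them.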

Additional observations from a re-analysis of the deposited data

How the results depend on the processing

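Changes of single MHC genes were followed here only if they were called in the fit reported or in at least 1 alternative, which gave 54. Of these, 39 were called in the fit reported, 20 of the 39 kept their call in every alternative, and none of the 54 reversed. Changes called in no fit are left out of these numbers. In the sort, 8 to 10 MHC genes (4188 to 4612 of all genes) were called when 1 library was left out. The ranges were 0 to 0 (0 to 5) for Eomes-TKO IgG against Eomes-GFP IgG, 0 to 0 (0 to 83) for Eomes-TKO 4-1BB against Eomes-TKO IgG, 0 to 0 (0 to 15) for Eomes-TKO 4-1BB against GFP-, 7 to 13 (3060 to 4499) for Eomes-TKO 4-1BB against GFP+, 8 to 14 (3195 to 4424) for GFP+ against Eomes-GFP IgG and 0 to 1 (1 to 21) for GFP- against Eomes-GFP IgG. With no filter on low counts 1 MHC gene was called for Eomes-TKO 4-1BB against Eomes-TKO IgG and 2 against GFP-. For GFP- against Eomes-GFP IgG the count of MHC genes, 1 in the fit reported, was 2 with upper-quartile normalization, 2 in DESeq2, 4 with no filter and 3 with the 2 groups alone.

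Over all genes, Eomes-TKO IgG against Eomes-GFP IgG had 2 calls, against 5 in DESeq2, 112 with no filter and 1 with the groups alone. Eomes-TKO 4-1BB against Eomes-TKO IgG had 6, against 10 with upper-quartile normalization, 63 in DESeq2, 258 with no filter and 0 with the groups alone. Eomes-TKO 4-1BB against GFP- had 6, against 0 with upper-quartile normalization, 52 in DESeq2 and 220 with no filter. GFP- against Eomes-GFP IgG had 107, against 297 in DESeq2, 521 with no filter and 393 with the groups alone. The cause of these shifts was not tested.

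The replicate number pairs GFP+ with GFP- libraries of the same prefix and no other groups. As a block over all 13 libraries it gave 3 MHC genes for GFP- against Eomes-GFP IgG, and over all genes 15 calls for Eomes-TKO 4-1BB against Eomes-TKO IgG, 12 against GFP- and 266 for GFP- against Eomes-GFP IgG. The animal as a block gave 11 MHC genes and 5514 of all genes in the sort, and it changed the call of H2-Ob only among members. Scaling by library total alone moved 3 of 15 class sums by more than the spread between libraries: the classical sum of Eomes-GFP IgG cells to 3469 CPM, and the nonclassical sum to 4185 CPM in GFP+ and 2352 CPM in Eomes-TKO 4-1BB cells. Class II chain genes rest on 74 to 123 counts over 13 libraries. Most of their count ratios given above had counting intervals that did not include 1, while the test over libraries mostly did not call them. These intervals pool the reads of a group and leave out the spread between its libraries, so they cannot test a difference between groups. H2-Eb1 reached the filter's cut in 3 libraries only, 2 of them the Eomes-TKO 4-1BB libraries where it was high.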
